A study of Mus musculus with 10 samples.

Results

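Chemokines are small secreted proteins, and their receptors sit on the cells that follow them. The genes described here are the mouse chemokines and chemokine receptors, chosen by symbol: every gene named Ccl, Cxcl, Ccr or Cxcr with a number, together with Xcl1, Xcr1, Cx3cl1, Cx3cr1, Ackr2, Ackr3, Ackr4 and Ccrl2. The rule found 55 of the 19938 genes measured, of which 34 encode ligands (19 CC, 13 CXC and 2 of the XC and CX3C kinds) and 21 encode receptors (9 CC, 6 CXC, 2 XC or CX3C and 4 atypical). The rule reads symbols alone.

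Chemokine names follow the spacing of the first cysteines (CC, CXC, XC, CX3C). Most conventional receptors signal through inhibitory G proteins to the actin cytoskeleton and to integrins, and so steer migration and adhesion, while atypical receptors bind ligands without that signal. In the spleen, Ccr7 and its ligands hold naive T cells in the T cell zone and Cxcr5 draws cells into B cell follicles. Activated T cells secrete chemokines of their own, which attract monocytes, dendritic cells and other lymphocytes.

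RNA came from CD4+ spleen cells of female mice aged 8 weeks, of strain B10 (genotype label B10Br) or NOD (genotype label NODk). Cells were taken with CD4 beads on an autoMACS separator, and each RNA sample was read on 1 Affymetrix array. In each strain 3 samples were unstimulated (T0, replicates 1, 2 and 3) and 2 were stimulated (T1, replicates 2 and 3) with 10 ng/ml PMA and 1 uM ionomycin for 4 hours, drugs that activate protein kinase C and raise intracellular calcium. T0 is labelled basal, yet the protocol text can also be read as culture without the drugs for the same time, and the labels do not settle which was done. Replicates are labelled biological, with no statement of which animal gave which sample, so p-values measure the spread between these samples. Array values are given below in the order of the replicate numbers. Of all 19938 genes, 4308 had both NOD arrays above both B10 arrays at T1, and 4028 had both below. At T0, 2205 had all 3 NOD arrays above those of B10, and 2331 had all below.

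Values are log2 intensities, so a difference of 1 is a 2-fold change, and levels of different genes are not comparable because each has its own probes. Detection calls were not used here, and 27 of the 55 genes had a mean at or below 6.31, the median of all genes. Of these dimmer genes, Ccl11, Ccl22, Ccr1, Cxcl3, Cxcl5, Cxcl11, Cxcr1 and Cxcr2 passed in some comparison below. Array medians lay between 6.18 and 6.23. The mean level of 7 CD4 T cell markers was 10.86 to 11.04 on the T0 arrays and 9.96 to 10.27 on the T1 arrays. Markers of other cells were measured too, and 8 of 10 monocyte and macrophage markers fell on stimulation in B10 and 9 of 10 in NOD. Neutrophil markers numbered 8, of which 4 fell in B10 and 6 in NOD. Another 8 marked B cells, with 4 falls and 1 rise in B10 against 6 falls in NOD. Of the 7 CD4 T cell markers themselves, 4 fell in each strain, and 1 rose in NOD. Dendritic cell markers numbered 7, of which 4 fell in B10, while 5 fell and 1 rose in NOD. Of 8 CD8 T and natural killer cell markers, 5 fell in B10 and 4 in NOD. Across all genes 18.1% fell in B10 and 19.5% in NOD, and among genes above the median level 32.2% and 34.6%. In bulk samples, fewer cells of a type and less RNA per cell cannot be told apart.

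Stimulation changed 23 of the 55 genes in B10 at an adjusted p below 0.05, against 31.8% of all genes. Of the 23, 15 rose (13.7% of all genes did) and 8 fell (18.1%). In NOD 23 of the 55 changed as well, against 35.5% of all genes, with 13 rising (16.1% of all genes) and 10 falling (19.5%). Ligands made up most of the rises, 13 of 34 in B10 and 11 of 34 in NOD, and in each strain 2 ligands fell. Of the 21 receptors, 2 rose in each strain, 6 fell in B10 and 8 fell in NOD. The other 13 in B10 and 11 in NOD did not pass. Among all genes above the median level, 32.2% fell and 23.1% rose in B10, and 34.6% fell and 21.5% rose in NOD. At least 2-fold rises numbered 11 in B10 and 9 in NOD, while 4.09% and 3.36% of all genes rose that much. The median change of the 55 was 0.10 in B10 and 0.16 in NOD, beside 0.03 and 0.08 for all genes. In no comparison did 25 members pass.

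**Figure D1:**
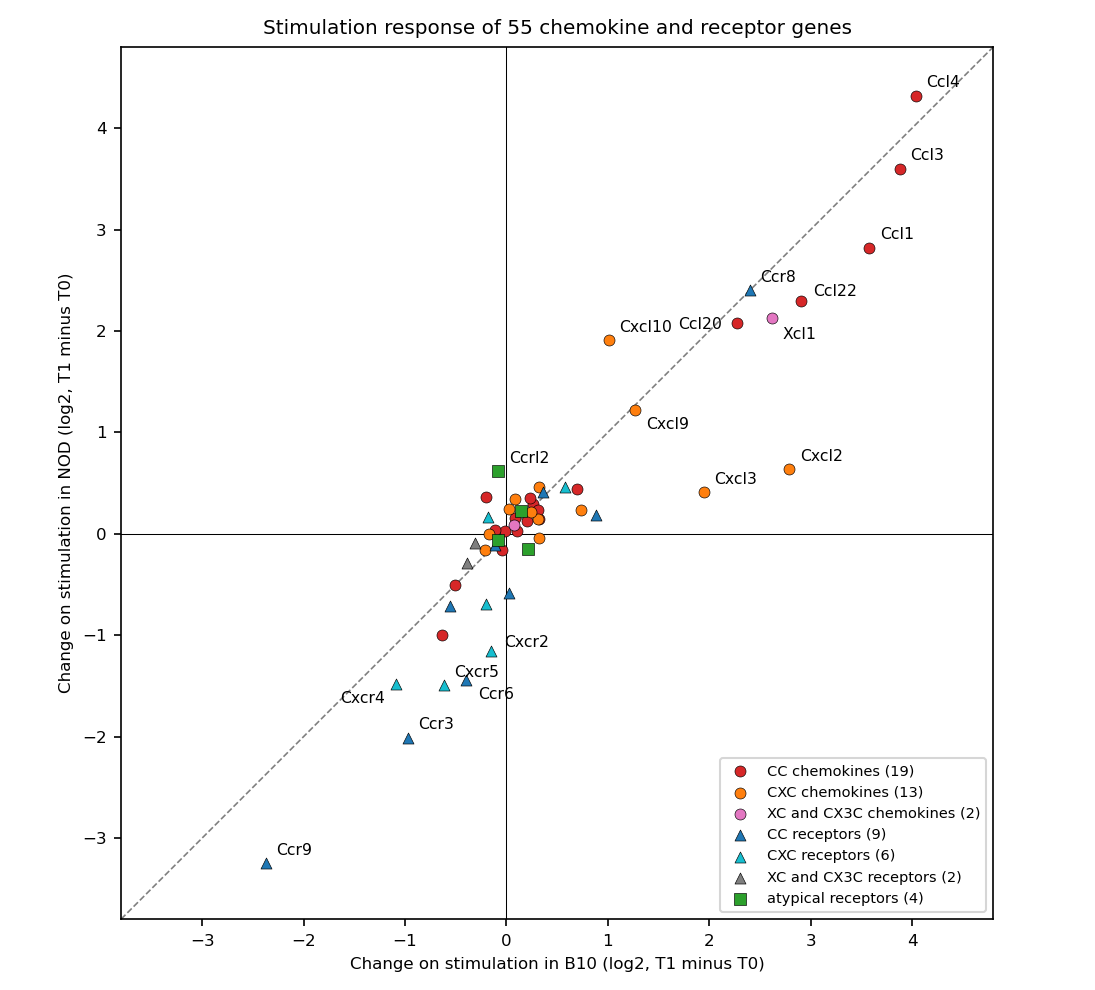
Change on stimulation (T1 minus T0, log2) in B10 on the x axis and in NOD on the y axis for the 55 genes, 1 point per gene, shaped and coloured by kind, with the line of equal change dashed. Ccl4, Ccl3 and Ccl1 lie at the upper right, Ccr9 at the lower left, and Cxcl2 and Cxcl3 sit well below the line at 2.79 and 1.95 in B10 against 0.64 and 0.41 in NOD.

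The same 11 genes rose in both strains: the ligands Ccl1, Ccl3, Ccl4, Ccl9, Ccl20, Ccl22, Cxcl9, Cxcl10, Cxcl11 and Xcl1, and the receptor Ccr8. In both strains 7 fell: Ccl6, Ccl25, Ccr3, Ccr7, Ccr9, Cxcr4 and Cxcr5. Across all genes, 10.2% rose in both strains and 15.7% fell in both. No member rose in one strain and fell in the other.

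Among the CC ligands, the inflammatory chemokines Ccl3 and Ccl4, which act on monocytes and effector T cells, had the largest rises. Ccl3 read 9.71, 9.47 and 9.12 in B10 at T0 and 13.39 and 13.23 at T1, and in NOD 9.68, 9.65 and 10.03 at T0 and 13.23 and 13.54 at T1. The T1 arrays lay far above the T0 arrays and the strains overlapped at each state. The change was 3.88 ± 0.17 (log2, standard error) in B10, or 14.7-fold (adjusted p = 6.86e-09), and 3.60 ± 0.17 in NOD, or 12.1-fold (adjusted p = 1.18e-08). Ccl4 read 7.81, 7.65 and 7.26 in B10 at T0 and 11.79 and 11.44 at T1, with 7.27, 7.23 and 7.78 in NOD at T0 and 11.51 and 11.99 at T1. Its rise was 16.4-fold in B10 (4.04 ± 0.21, adjusted p = 1.98e-08), and in NOD 20-fold (4.32 ± 0.21, adjusted p = 1.3e-08), the largest of the 55 in each strain.

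Ccl1, the ligand of Ccr8 made by activated T cells, and Ccl22, which attracts Ccr4-bearing T cells, rose in both strains and ended lower in NOD. Ccl1 read 5.16, 5.63 and 5.43 in B10 at T0 and 9.16 and 8.82 at T1, against 5.17, 5.53 and 5.42 in NOD at T0 and 7.99 and 8.39 at T1. The T0 arrays of the strains overlapped, and both T1 arrays of NOD lay below both of B10, as for 4028 of all 19938 genes. The rise was 12.0-fold in B10 (3.58 ± 0.17, adjusted p = 1.07e-08), and in NOD 7.05-fold (2.82 ± 0.17, adjusted p = 6.57e-08). Ccl22 read 5.42, 5.24 and 5.15 in B10 at T0 and 8.36 and 7.98 at T1, and in NOD 5.18, 5.16 and 5.31 at T0 and 7.47 and 7.57 at T1. It rose 7.46-fold in B10 (2.90 ± 0.13, adjusted p = 6.64e-09), and in NOD 4.94-fold (2.30 ± 0.13, adjusted p = 3.58e-08).

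Ccl20, the ligand of Ccr6, rose by about as much in each strain. Its levels were 5.95, 5.45 and 5.77 in B10 at T0, 7.98 and 7.99 at T1, 5.62, 5.69 and 5.84 in NOD at T0, and 8.03 and 7.56 at T1. The change was 2.27 ± 0.16 in B10 (adjusted p = 2.11e-07) and 2.08 ± 0.16 in NOD (adjusted p = 4.36e-07). Xcl1, or lymphotactin, which attracts cross-presenting dendritic cells, also rose, from a lower level in NOD. Xcl1 read 8.35, 8.04 and 7.99 in B10 at T0 and 11.01 and 10.49 at T1, but 7.39, 7.51 and 7.39 in NOD at T0 and 9.57 and 9.56 at T1. No NOD array reached the lowest B10 array of the same state. The rise was 6.15-fold in B10 (2.62 ± 0.15, adjusted p = 4.11e-08), and in NOD 4.38-fold (2.13 ± 0.15, adjusted p = 2.21e-07).

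The interferon-induced ligands of Cxcr3 rose in both strains. Cxcl10 read 8.83, 9.06 and 8.07 in B10 at T0 and 9.62 and 9.72 at T1, and in NOD 8.25, 8.05 and 8.76 at T0 and 9.99 and 10.53 at T1. Its rise was 1.01 ± 0.27 in B10 (adjusted p = 0.00971) and 1.91 ± 0.27 in NOD (adjusted p = 8.62e-05). The B10 call did not pass without T1 replicate 3 (0.96, adjusted p = 0.0629), with trend and robust settings of limma (adjusted p = 0.065) or without both B10 arrays of replicate 3 (0.67, adjusted p = 0.122). Cxcl9 read 5.78, 6.12 and 5.63 in B10 at T0 and 7.25 and 7.0 at T1, and in NOD 5.65, 5.85 and 6.12 at T0 and 6.78 and 7.41 at T1. It rose by 1.27 ± 0.20 in B10 (adjusted p = 0.000199) and 1.22 ± 0.20 in NOD (adjusted p = 0.00028). Cxcl11 rose less, by 0.32 in B10 (adjusted p = 0.0469) and 0.46 in NOD (adjusted p = 0.00611).

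Cxcl2 and Cxcl3, ligands of the neutrophil receptor Cxcr2, passed for a rise in B10 and not in NOD. Cxcl2 read 7.32, 7.32 and 6.63 in B10 at T0 and 10.25 and 9.51 at T1, against 7.24, 6.88 and 8.02 in NOD at T0 and 7.68 and 8.35 at T1. The NOD T1 arrays overlapped the T0 arrays of their own strain. Both lay below both B10 T1 arrays, as for 4028 of all 19938 genes. The change was 2.79 ± 0.33 in B10 (6.91-fold, adjusted p = 2.01e-05) and 0.64 ± 0.33 in NOD (adjusted p = 0.153). Without NOD T0 replicate 3, the highest T0 array, the NOD change was 0.96 (adjusted p = 0.0264). Cxcl3 read 4.75, 4.97 and 4.70 in B10 at T0 and 7.21 and 6.30 at T1, against 4.67, 4.84 and 4.81 in NOD at T0 and 4.84 and 5.52 at T1. It rose 3.86-fold in B10 (1.95 ± 0.23, adjusted p = 2.27e-05), with a change of 0.41 ± 0.23 in NOD (adjusted p = 0.196). Without NOD T1 replicate 2 the NOD value was 0.75 (adjusted p = 0.044).

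Cxcl5 and Cxcl1, also ligands of that receptor, moved less. Cxcl5 averaged 4.14 ± 0.11 (SD, n = 3) at T0 and 4.89 ± 0.26 (n = 2) at T1 in B10. It rose by 0.74 ± 0.13 in B10 (adjusted p = 0.000562), with 0.23 in NOD (adjusted p = 0.199). Cxcl1 changed by 0.32 in B10 (adjusted p = 0.15) and -0.04 in NOD (adjusted p = 0.88) and passed in neither. Markers of neutrophils, which also express Cxcl2, averaged 5.51 to 5.53 on the B10 T1 arrays and 5.60 to 5.84 on the NOD T1 arrays. Monocyte and macrophage markers averaged 6.58 to 6.71 and 6.85 to 7.13 there. Of both lists 0 genes passed between the strains at T1, against 3.60% of all genes. Both NOD T1 arrays lay above both B10 T1 arrays for 6 of 10 monocyte and macrophage markers and 2 of 8 neutrophil markers. They lay below for 0 of either list, and above for 4308 of all 19938 genes. The part of these cells in the Cxcl2 and Cxcl3 values was not tested.

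The sequences before the transcription starts of 5 of these genes are shown because they share a motif and, in the arrays, did not move alike. Each holds the 200 bases before the start in the RefSeq annotation of assembly GRCm38.p6, read along the gene's own strand. Capitals mark any match on either strand to GGGA, any 2 bases and TTCC (the NF-kappaB motif), TGANTCA (AP-1) or TGGAAA (the core of NFAT sites), factors that PMA and ionomycin are known to activate. The regions are chr5:90903699-90903898 on the plus strand for Cxcl2, chr5:90785901-90786100 on the plus strand for Cxcl3, chr5:90891045-90891244 on the plus strand for Cxcl1, chr5:92348890-92349089 on the minus strand for Cxcl10 and chr11:82179813-82180012 on the minus strand for Ccl1.
Cxcl2: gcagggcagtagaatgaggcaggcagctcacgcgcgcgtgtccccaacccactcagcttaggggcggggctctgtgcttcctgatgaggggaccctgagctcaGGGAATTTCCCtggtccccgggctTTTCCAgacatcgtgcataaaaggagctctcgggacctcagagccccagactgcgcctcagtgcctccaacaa
Cxcl3: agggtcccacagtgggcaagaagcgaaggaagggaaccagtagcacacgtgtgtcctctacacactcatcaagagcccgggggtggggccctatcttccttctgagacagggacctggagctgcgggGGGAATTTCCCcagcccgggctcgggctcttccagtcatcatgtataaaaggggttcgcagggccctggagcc
Cxcl1: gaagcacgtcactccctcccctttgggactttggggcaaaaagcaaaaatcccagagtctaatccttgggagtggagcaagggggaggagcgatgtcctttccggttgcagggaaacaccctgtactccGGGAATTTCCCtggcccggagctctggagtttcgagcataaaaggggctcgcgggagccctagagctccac
Cxcl10: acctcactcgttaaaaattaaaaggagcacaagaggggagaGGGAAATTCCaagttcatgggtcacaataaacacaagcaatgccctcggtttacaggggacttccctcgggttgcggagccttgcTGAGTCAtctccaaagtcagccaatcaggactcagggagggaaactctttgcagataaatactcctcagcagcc
Ccl1: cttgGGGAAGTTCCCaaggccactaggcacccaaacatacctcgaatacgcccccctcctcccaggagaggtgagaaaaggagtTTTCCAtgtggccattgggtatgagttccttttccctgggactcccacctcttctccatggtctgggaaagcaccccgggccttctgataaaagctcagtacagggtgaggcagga

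Cxcl1, Cxcl2 and Cxcl3 held the identical run GGGAATTTCCC, from 71 to 61, 97 to 87 and 73 to 63 bases before the start, in which matches on both strands overlap. In Ccl1 the run was GGGAAGTTCCC, from 196 to 186 bases before the start, and in Cxcl10 GGGAAATTCC, from 159 to 150. Cxcl2 and Cxcl1 thus carried the same letters, with changes of 2.79 and 0.32 in B10. Over the 250 bases before each start, the NF-kappaB letters were found in 397 of 32851 windows (1.21%) of the annotation and in 6 of the 45 windows of 41 members (13.3%), the sixth gene being Ccr3. The AP-1 letters were found in 6.75% of all windows and 4 of the 45, and the NFAT letters in 18.6% and 16 of the 45. Ccrl2 and Ccr6 count more than once among those 16, and overlapping windows of Ccrl2 hold the same site. Ccr3 held the letters of all these motifs and fell on stimulation (-0.97 in B10, -2.01 in NOD). Ccl3, Ccl20, Ccl22, Cxcl9, Xcl1 and Ccr8 rose in both strains, and their windows held none of the motifs. The motifs were chosen after the sequences and array values had been seen, and a match is no evidence that a factor binds. The table of sequences has no entry for 14 members: Ccl2, Ccl4, Ccl5, Ccl7, Ccl11, Ccl24, Ccl26, Cxcl5, Cxcl11, Cxcl16, Cxcl17, Ccr7, Ccr10 and Cxcr5.

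The remaining CC ligands changed little or fell. Ccl9, a monocyte attractant, rose by 0.70 in B10 (adjusted p = 0.000259) and 0.44 in NOD (adjusted p = 0.00825). Ccl6, made by myeloid cells, fell by 0.64 in B10 (adjusted p = 0.00769) and by 1.00 in NOD (adjusted p = 0.000293). Monocyte and macrophage markers fell with it, from a mean of 7.57 to 8.01 to one of 6.58 to 6.71 in B10 and from 8.31 to 8.59 to 6.85 to 7.13 in NOD; their part in this was not tested. Ccl25, the gut and thymus ligand of Ccr9, fell by 0.51 in both strains (adjusted p = 0.00254 in B10 and 0.0026 in NOD) by the brighter of its 2 probe sets. With the mean of both, the change was -0.30 in B10 (adjusted p = 0.0403) and -0.25 in NOD, where it did not pass (adjusted p = 0.076). Ccl11, or eotaxin, passed in NOD at 0.29 (adjusted p = 0.0324), with 0.26 in B10 (adjusted p = 0.0565).

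Ccl5, the effector T cell chemokine also called RANTES, separated the strains rather than the states. It read 10.31, 10.75 and 10.06 in B10 at T0 and 11.02 and 10.34 at T1, and in NOD 9.05, 8.73 and 9.01 at T0 and 9.11 and 9.21 at T1. All 5 NOD arrays lay below all 5 B10 arrays, while the states overlapped in B10. The change on stimulation was 0.31 in B10 (adjusted p = 0.329) and 0.23 in NOD (adjusted p = 0.431), although the B10 value was 0.65 without T1 replicate 3 (adjusted p = 0.0483) and -0.03 without T1 replicate 2. The other 17 ligands passed in no comparison, among them Ccl2, Ccl17, Cxcl12, Cxcl13, Cxcl16 and Cx3cl1, with changes on stimulation from -0.21 to 0.32 in B10 and -0.16 to 0.36 in NOD.

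**Figure D2:**
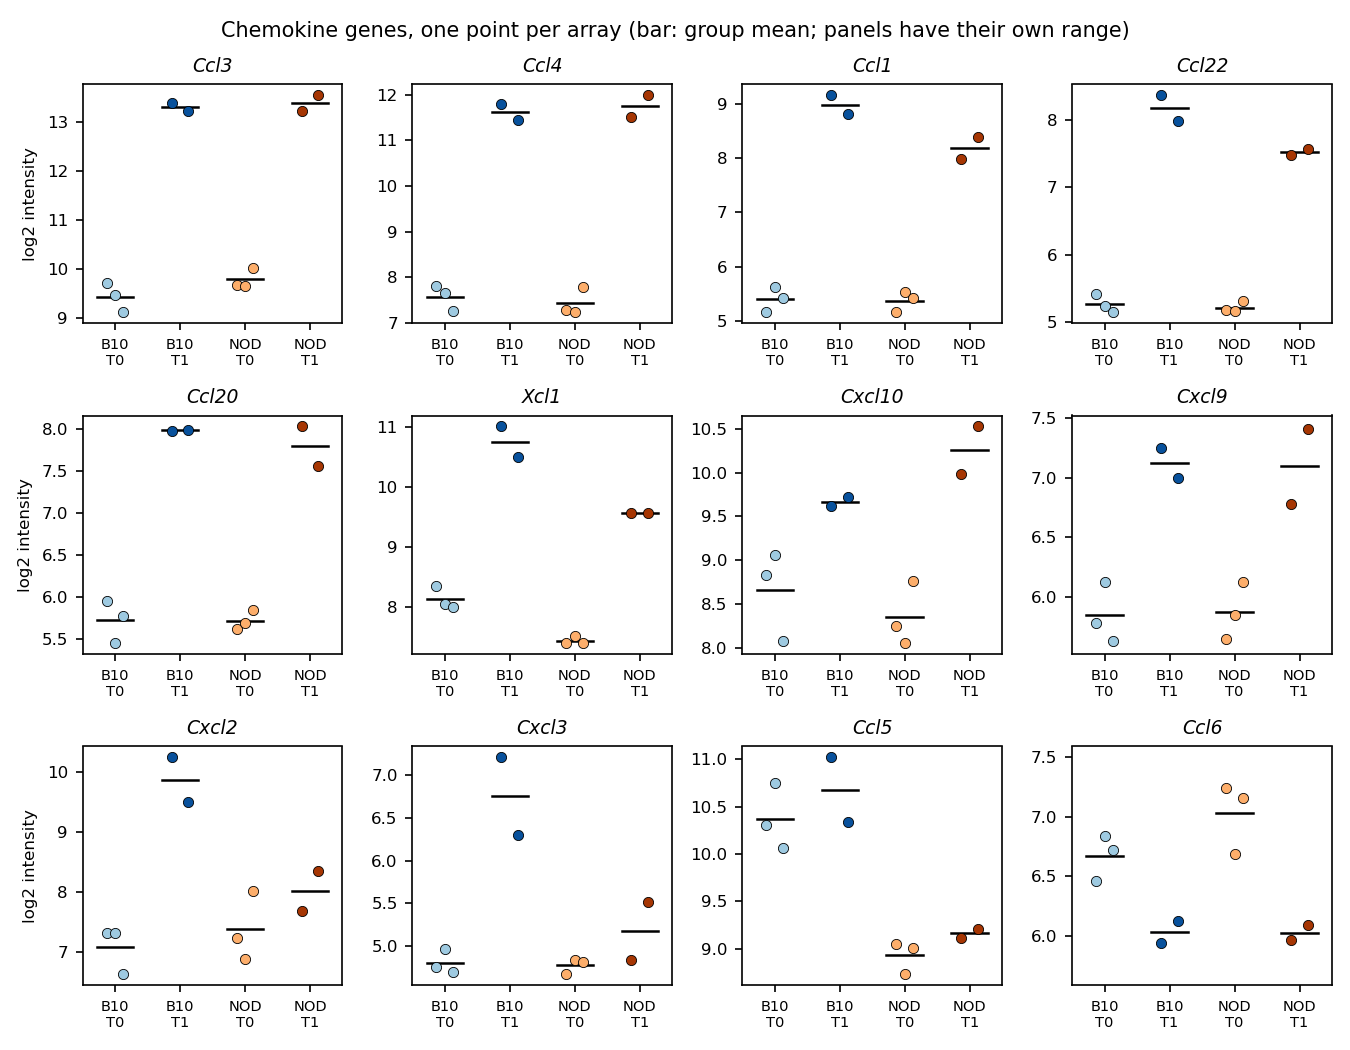
Log2 intensity of the ligands described most fully, 1 panel per gene, with 1 point per array in each of the 4 groups (3 arrays at T0 and 2 at T1 in each strain) and a line at the group mean. Ccl3 and Ccl4 sit at like levels in both strains, Cxcl2 and Cxcl3 separate the strains at T1, and Ccl5 and Xcl1 separate them in both states.

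Among the receptors, Ccr8 was the only one that rose in both strains. It is found on activated and regulatory T cells and binds Ccl1. Ccr8 read 8.72, 8.99 and 8.03 in B10 at T0 and 11.19 and 10.77 at T1, and in NOD 7.85, 7.82 and 8.16 at T0 and 10.29 and 10.40 at T1. The rise was 5.29-fold in each strain (2.40 ± 0.23, adjusted p = 2.76e-06 in B10 and 2.72e-06 in NOD). Ccr1, a receptor for Ccl3 and Ccl5 on myeloid cells and some T cells, rose by 0.88 ± 0.12 in B10 (adjusted p = 9.35e-05), with a change of 0.18 in NOD (adjusted p = 0.283). Its level was low, with B10 means of 4.17 at T0 and 5.05 at T1.

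Ccr9, the gut-homing receptor, had the largest fall. It read 8.14, 7.88 and 8.11 in B10 at T0 and 5.92 and 5.42 at T1, and in NOD 8.58, 8.36 and 8.36 at T0 and 5.15 and 5.22 at T1. No T1 array came near a T0 array. The fall was 5.18-fold in B10 (-2.37 ± 0.14, adjusted p = 6.96e-08), and in NOD 9.50-fold (-3.25 ± 0.14, adjusted p = 7.4e-09). Cxcr4, the receptor for Cxcl12 that retains cells in bone marrow and lymphoid tissue, read 12.42, 12.59 and 12.34 in B10 at T0 and 11.30 and 11.43 at T1, with 12.70, 12.72 and 12.72 in NOD at T0 and 11.35 and 11.12 at T1. It fell by 1.09 ± 0.11 in B10 (adjusted p = 4.47e-06) and by 1.48 ± 0.11 in NOD (adjusted p = 3.23e-07). Ccr7, the receptor that brings naive T cells into lymphoid organs, fell by 0.56 in B10 (adjusted p = 0.00193) and by 0.71 in NOD (adjusted p = 0.000309).

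Ccr3, Ccr6, Cxcr5 and Cxcr2 had falls of at least 2-fold in NOD and smaller changes in B10. Ccr3, the eotaxin receptor known from eosinophils and basophils, read 7.40, 7.59 and 7.88 in B10 at T0 and 6.89 and 6.42 at T1, and in NOD 8.62, 8.16 and 8.82 at T0 and 6.50 and 6.55 at T1. The strains were apart at T0 and overlapped at T1. It fell by 0.97 ± 0.19 in B10 (adjusted p = 0.00154) and by 2.01 ± 0.19 in NOD (adjusted p = 3.61e-06), and without both B10 arrays of replicate 3 the B10 change was -0.61 (adjusted p = 0.0808). Ccr6, carried by B cells and Th17 cells, read 6.99, 6.81 and 6.57 in B10 at T0 and 6.38 and 6.39 at T1, against 7.40, 7.16 and 7.60 in NOD at T0 and 5.67 and 6.22 at T1. It fell by 1.44 ± 0.17 in NOD (adjusted p = 2.53e-05), with -0.40 in B10 (adjusted p = 0.105; 0.0439 when the B10 arrays were fitted alone).

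Cxcr5, the follicle-homing receptor of B cells and follicular helper T cells, read 7.79, 7.90 and 7.26 in B10 at T0 and 7.14 and 6.92 at T1, against 7.89, 7.77 and 8.14 in NOD at T0 and 6.25 and 6.64 at T1. It fell by 1.49 ± 0.18 in NOD (adjusted p = 3.22e-05) and by 0.62 ± 0.18 in B10 (adjusted p = 0.0196). The B10 call was lost without T0 replicate 1 (-0.55, adjusted p = 0.0694), T0 replicate 2 (-0.50, adjusted p = 0.0749) or T1 replicate 3 (-0.52, adjusted p = 0.148), and with all arrays set to one 75th percentile (-0.56, adjusted p = 0.0594). Cxcr2, the neutrophil receptor for Cxcl1, Cxcl2, Cxcl3 and Cxcl5, read 4.62, 4.62 and 4.47 in B10 at T0 and 4.54 and 4.30 at T1, against 5.29, 5.29 and 5.54 in NOD at T0 and 4.02 and 4.39 at T1. Only the NOD T0 arrays stood above the rest. The change was -1.16 ± 0.13 in NOD (adjusted p = 1.56e-05) and -0.15 in B10 (adjusted p = 0.48). Neutrophil markers averaged 6.80 to 7.16 on the NOD T0 arrays and 5.60 to 5.84 on the NOD T1 arrays, and B cell markers 8.61 to 8.94 and 7.29 to 7.37. In B10, neutrophil markers averaged 6.18 to 6.59 at T0 and 5.51 to 5.53 at T1, and B cell markers 8.32 to 8.57 and 7.58 to 7.64. The response of 2 of 8 B cell markers and 0 of 8 neutrophil markers differed between strains (0.246% of all genes), lower in NOD for both B cell markers. The part of these cells in the falls of Cxcr2, Cxcr5 and Ccr6 was not tested.

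Falls under 2-fold were called for the monocyte receptor Ccr2 in NOD (-0.58, adjusted p = 0.00774; 0.03 in B10) and for Cx3cr1 in B10 (-0.39, adjusted p = 0.0289; -0.29 in NOD, adjusted p = 0.0936). Cxcr3, Ccr4 and Cxcr6 did not pass on stimulation. Cxcr3, the Th1 receptor for Cxcl9 to Cxcl11, changed by 0.58 in B10 (adjusted p = 0.0787) and 0.46 in NOD (adjusted p = 0.14). Ccr4, the Th2 receptor for Ccl17 and Ccl22, changed by 0.36 in B10 (adjusted p = 0.109) and 0.41 in NOD (adjusted p = 0.0586). Cxcr6, the receptor for Cxcl16 on effector cells, changed by -0.20 in B10 (adjusted p = 0.644) and -0.69 in NOD (adjusted p = 0.0601). Of the atypical receptors, Ccrl2 rose in NOD and Ackr2, Ackr3 and Ackr4 passed in no comparison.

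**Figure D3:**
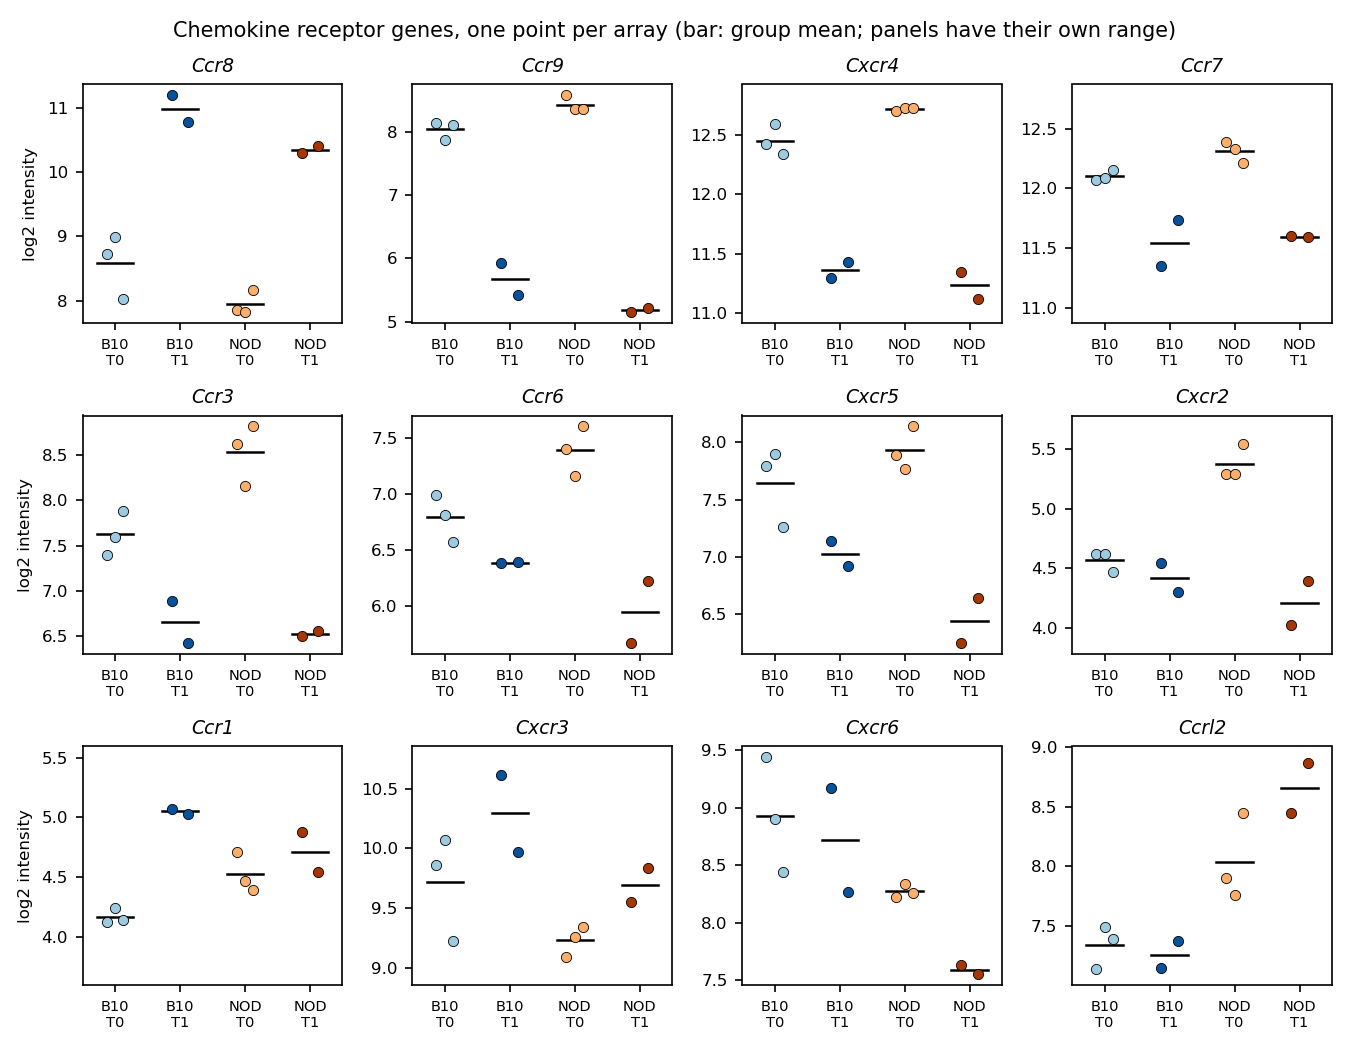
Log2 intensity of the receptors described most fully, 1 panel per gene, with 1 point per array in each of the 4 groups (3 arrays at T0 and 2 at T1 in each strain) and a line at the group mean. Ccr8 rises and Ccr9, Cxcr4 and Ccr7 fall in both strains, the NOD T0 arrays stand highest for Cxcr2, Ccr3 and Ccr6, and the NOD arrays stand highest for Ccrl2.

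Set beside each other, ligands and their known receptors moved in different combinations. Ccl1 and its receptor Ccr8 rose together in both strains, and Ccl25, by its brighter probe set, fell along with its receptor Ccr9. Ccl20 rose in both strains while its receptor Ccr6 fell in NOD. Xcl1 rose while its receptor Xcr1, a dendritic cell gene, passed in neither strain (-0.31 in B10 and -0.09 in NOD). Ccr7 and Cxcr4 fell, and their ligands Ccl19 and Cxcl12 passed in no comparison. These pairings are textbook knowledge and were not tested as pairs.

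Members that neighbour each other in the RefSeq gene order (at most 4 protein-coding genes apart) did not all move alike. In the run Ccl5, Ccl9, Ccl6, Ccl3 and Ccl4, the changes in B10 were 0.31, 0.70, -0.64, 3.88 and 4.04. In the run Ccl2, Ccl7, Ccl11, Ccl12, Ccl8 and Ccl1, Ccl1 rose by 3.58 in B10 and the others lay between -0.20 and 0.26. In the run Cxcl5, Cxcl3, Cxcl15, Cxcl1 and Cxcl2, the B10 changes were 0.74, 1.95, 0.24, 0.32 and 2.79, and the NOD changes 0.23, 0.41, 0.21, -0.04 and 0.64. Ccr8 rose by 2.40 in B10 and its neighbour Cx3cr1 fell by 0.39.

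Before stimulation, 7 of the 55 genes differed between the strains, against 5.79% of all genes. Higher in NOD were 4, Ccr3, Ccr6, Cxcr2 and Ccrl2 (3.44% of all genes were), and lower were 3, Ccl5, Xcl1 and Cxcr1 (2.35%). Ccl5 was 2.71-fold lower in NOD (-1.44 ± 0.19, adjusted p = 0.000807) and Xcl1 was lower by 0.69 ± 0.13 on the log2 scale (-0.69, adjusted p = 0.00841). Both are made by cytotoxic and natural killer cells as well as by CD4 T cells. Markers of CD8 T and natural killer cells averaged 6.18 to 6.36 on the B10 T0 arrays and 5.79 to 5.83 on those of NOD, with 4 of 8 lower in NOD, and their part in the difference was not tested.

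Cxcr2 was higher in NOD at T0 by 0.80 ± 0.12 (adjusted p = 0.00195) and Ccr3 by 0.91 ± 0.17 (adjusted p = 0.00821). Neutrophil markers averaged 6.18 to 6.59 on the B10 and 6.80 to 7.16 on the NOD T0 arrays, with 4 of 8 higher in NOD, and 6 of 10 monocyte and macrophage markers were higher too; their part was not tested. Ccr6 (0.60 ± 0.16, adjusted p = 0.0423), Ccrl2 (0.70 ± 0.17, adjusted p = 0.0312) and Cxcr1 (-0.40 ± 0.10, adjusted p = 0.0459) were nearer the threshold. Ccr6 was lost on leaving out any 1 of the 5 B10 arrays or NOD T0 replicate 1 or 3 (0.49 to 0.70, adjusted p = 0.0515 to 0.194) and with the 75th percentile scaling (0.58, adjusted p = 0.078). Ccrl2 was lost without any 1 of the B10 T0 arrays or NOD T0 replicate 1 or 3 (0.50 to 0.78, adjusted p = 0.0535 to 0.146). Cxcr1, the companion receptor of Cxcr2, read 6.20, 5.92 and 6.02 at T0 and 5.92 and 5.82 at T1 in B10, and 5.58, 5.56 and 5.81 at T0 and 5.74 and 5.90 at T1 in NOD, so that all NOD T0 arrays lay below the B10 T0 arrays. Its T0 call was lost without any 1 of the B10 arrays or NOD T0 replicate 1 or 2 (-0.46 to -0.32, adjusted p = 0.0556 to 0.196). It was also lost with the 75th percentile scaling (adjusted p = 0.0636), with trend and robust settings (0.0561) and with replicate number as a fixed block (0.058). Ccr8 was lower in NOD by 0.64 (-0.64, adjusted p = 0.101), a difference that passed without B10 T0 replicate 3 (-0.91, adjusted p = 0.00516), and Ccr9 was higher by 0.39, passing without B10 T1 replicate 2 or 3 (adjusted p = 0.0498).

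After stimulation, 7 of the 55 differed between strains, against 3.60% of all genes. Lower in NOD were 6, all of them ligands: Ccl1, Ccl5, Ccl22, Cxcl2, Cxcl3 and Xcl1 (1.83% of all genes were lower). The receptor Cxcr6 was just short of the threshold in limma, at -1.13 ± 0.29 (adjusted p = 0.0517). Both of its NOD T1 arrays lay below both B10 T1 arrays, as they did for 4028 of all 19938 genes. The atypical receptor Ccrl2 was higher, as were 1.77% of all genes. Ccl5 was 2.88-fold lower (-1.52 ± 0.23, adjusted p = 0.00411), Xcl1 differed by -1.18 ± 0.16 (adjusted p = 0.00215), Cxcl2 was 3.63-fold lower (-1.86 ± 0.36, adjusted p = 0.0153) and Cxcl3 2.98-fold lower (-1.57 ± 0.26, adjusted p = 0.00587). Ccl1 (-0.80 ± 0.19, adjusted p = 0.033) and Ccl22 (-0.65 ± 0.14, adjusted p = 0.0232) differed by less. Of CD8 T and natural killer cell markers, 1 of 8 was lower in NOD at T1, and their mean was 5.58 on both B10 arrays and 5.34 to 5.38 in NOD.

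Several of these calls rest on single arrays, with 2 in each group. Without B10 T1 replicate 2 the differences were -1.49 for Cxcl2 (adjusted p = 0.142), -0.63 for Ccl1 (adjusted p = 0.24) and -0.46 for Ccl22 (adjusted p = 0.203). Without NOD T1 replicate 2 they were -1.53 (adjusted p = 0.0689), -0.61 (adjusted p = 0.131) and -0.60 (adjusted p = 0.0718), and Ccl22 was also lost without NOD T1 replicate 3 (-0.70, adjusted p = 0.0798). With the 4 T1 arrays fitted alone, Cxcl3 (adjusted p = 0.0814), Ccl1 (0.111) and Ccl22 (0.139) did not pass. Nor did Ccl1 (adjusted p = 0.0767) and Ccl22 (0.058) with all arrays set to one 75th percentile, or Cxcl2 (0.103) with trend and robust settings. Ccl5, Xcl1 and Ccrl2 passed in every alternative run. No other probe set stood for these genes, so none of the runs checked them with other probes. Without B10 T1 replicate 3, Ccr9 was lower in NOD at T1 (-0.74, adjusted p = 0.0234).

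Ccrl2, an atypical receptor that binds the chemoattractant chemerin, was the only receptor that passed between strains at T1. It read 7.14, 7.49 and 7.39 in B10 at T0 and 7.15 and 7.37 at T1, and in NOD 7.90, 7.76 and 8.45 at T0 and 8.45 and 8.87 at T1. Every NOD array lay above every B10 array. It was 2.64-fold higher in NOD at T1 (1.40 ± 0.21, adjusted p = 0.00401). On stimulation it rose by 0.62 ± 0.19 in NOD (adjusted p = 0.0235) and changed by -0.08 in B10 (adjusted p = 0.824). The NOD rise did not pass without NOD T0 replicate 1 (0.55, adjusted p = 0.0803), T0 replicate 2 (0.48, adjusted p = 0.0784) or T1 replicate 3 (0.41, adjusted p = 0.226).

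**Figure D4:**
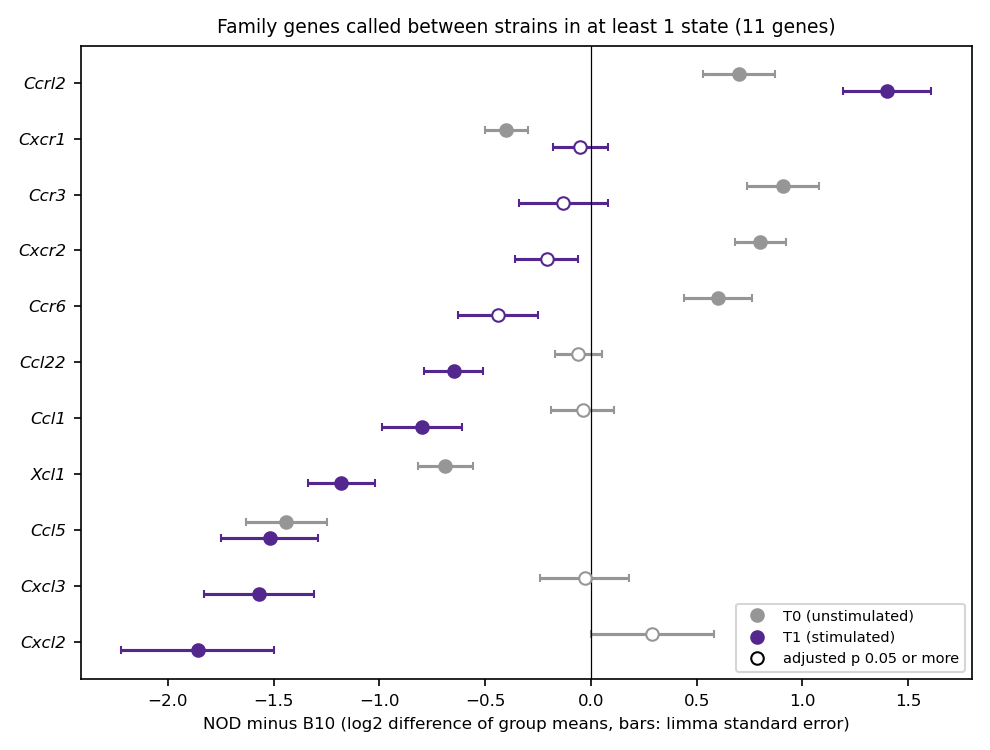
Difference between strains (NOD minus B10, log2) at T0 and at T1 for the 11 members that passed between strains in at least 1 state, with limma's standard error as bars and calls marked by filled points. Ccl5 and Xcl1 lie below 0 and Ccrl2 above 0 in both states, while Cxcl2 and Cxcl3 lie at 0.29 and -0.03 at T0 and at -1.86 and -1.57 at T1.

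Erythroid markers moved with the strains as well: all 3 were higher in NOD at T0, with array means of 7.31 to 9.38 in B10 at T0, 7.74 and 9.48 at T1, and 10.13 to 10.72 in NOD. The 2 B10 arrays of replicate 3 held the highest of the B10 values, 9.38 and 9.48. Their part in the strain differences was not tested, beyond fits without both arrays.

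Whether the response itself differed between the strains was tested with the interaction of strain and stimulation. Of the 55 genes 0 passed in limma, against 0.246% of all genes (49 of 19938), and 17 had an unadjusted p below 0.05, as did 9.23% of all genes. The largest values were those of Cxcl2 (-2.15 ± 0.47, adjusted p = 0.105) and Cxcl3 (-1.54 ± 0.33, adjusted p = 0.0993), negative where the NOD response was below that of B10. Cxcr2 was nearest the threshold (-1.02 ± 0.19, adjusted p = 0.0574). It passed with trend and robust settings (adjusted p = 0.0305) and with replicate number within strain as a random block (adjusted p = 0.0338). Without NOD T1 replicate 3 its value was -1.20. Without B10 T1 replicate 3, Cxcl3 (-1.99, adjusted p = 0.0118) and Ccr9 (-1.12, adjusted p = 0.0306) passed. The interaction was -1.04 for Ccr3 (adjusted p = 0.206), -1.04 for Ccr6 (adjusted p = 0.141), -0.86 for Cxcr5 (adjusted p = 0.297), -0.77 for Ccl1 (adjusted p = 0.316), -0.59 for Ccl22 (adjusted p = 0.295), -0.49 for Xcl1 (adjusted p = 0.506), 0.70 for Ccrl2 (adjusted p = 0.465) and 0.89 for Cxcl10 (adjusted p = 0.499). A call in one strain and none in the other, as for Cxcl2, is therefore not a shown difference in response.

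The machinery downstream of the receptors was followed with lists of genes that are not members. Of the 60 genes listed, 55 lay above the median level of all genes, and among all genes above it 32.2% fell and 23.1% rose in B10, and 34.6% fell and 21.5% rose in NOD. Over genes of any level, 18.1% fell and 13.7% rose in B10, and in NOD 19.5% fell and 16.1% rose. Of 22 G proteins and effectors, 14 fell and 2 rose in B10 and 16 fell and 0 rose in NOD, with median changes of -0.54 and -0.53. Gnai2, which encodes the main inhibitory G protein subunit of T cells, fell (-1.54 in B10, -1.60 in NOD), as did the kinase gene Pik3cg (-1.71, -2.08) and the Rac activator gene Dock2 (-1.35, -1.57). Of 18 integrin and adhesion genes, 12 fell and 2 rose in B10, and in NOD 12 fell and 3 rose, with medians of -0.92 and -0.81. The integrin gene Itga4 fell (-1.85, -2.04), and so did Selplg, the P-selectin ligand (-2.23, -1.87). Against this, Cd44, the hyaluronan receptor, rose (1.06, 1.17), and Itgav rose (1.35, 2.01). Genes of receptor desensitisation were mixed, 8 of 15 falling and 2 rising in B10, with 7 falling and 2 rising in NOD. Rgs1 and Rgs16, inhibitors of G protein signals, were the risers of at least 2-fold in both strains, at 1.42 and 1.03 for Rgs1 and 1.71 and 2.30 for Rgs16. Of 5 genes for proteases and sulfation, 2 fell in B10 and 4 in NOD, and 1 rose in each strain. Dpp4, which trims and inactivates several chemokines, fell (-2.07, -2.31). The other genes that fell at least 2-fold in both strains were Prex1 and Rac2 of the effectors, Grk6 of desensitisation, and Itgal, Itgb2, Itgb7, Tln1, Fermt3 and Rasgrp2 of adhesion.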

How the data were processed

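RNA of 10 samples was measured, 1 array each. The deposited values are log2 intensities per probe set from RMA, run by the authors in Affymetrix Power Tools per the submitters' processing notes. Version and build are not given in the sources used here, and log2 was taken as the scale from the range of values. RMA brings all arrays to one distribution, so a change shared by most genes would be hidden. Of 35486 probe sets, 21789 had 1 gene symbol in the platform annotation, and the one with the highest mean stood for each gene. Limma 3.58.1 (R 4.3.3) fitted 4 group means to all arrays, with 5 contrasts, eBayes and two-sided tests adjusted by Benjamini-Hochberg over 19938 genes (threshold 0.05). The fit was also run on simulated data with independent noise, in which some genes had a known change on stimulation in B10. Only that contrast was checked there, not those of strain or the interaction. The number of arrays limits precision.

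The members, marker and pathway lists and motifs were chosen with earlier results of these data known. Single array values are given for members called with at least a 2-fold change on stimulation in either strain, between strains or in the interaction, and the others are given by changes, ranges or group means. Pathway genes outside the family were named if called and at least 2-fold changed in both strains. Alternatives were a 75th percentile scaling, the mean of probe sets, brighter genes only, trend and robust eBayes, only the groups compared, a fixed or random replicate block, and leaving out each array. A fit without both B10 arrays of replicate 3 was added after seeing the data. Sequences and gene order came from RefSeq (GRCm38.p6), in which all 55 symbols matched. Figures were drawn with matplotlib 3.10.9.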

Additional observations from a re-analysis of the deposited data

How the results depend on the processing

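Among the 20 members described by array, no value that was called reversed under any alternative run, although values near 0 that were not called changed sign in some. Calls for these members held throughout for 12 of 15 in B10, 15 of 16 in NOD, 4 of 7 between strains at T0 and 3 of 7 at T1. Fitting only the groups compared lowered the calls between strains at T1 from 7 to 4 members and from 718 to 128 genes, a fit with fewer arrays; without both B10 arrays of replicate 3 it was 12 members, among 753 genes. In the interaction, 1 member was called instead of 0 with trend and robust settings, with the random block and without both B10 arrays of replicate 3, and genes called went from 49 to 31 with a 75th percentile scaling and 102 with trend and robust settings; the cause was not tested. Leaving out single arrays gave 21 to 25 members (5376 to 6596 genes) in B10, 21 to 25 (5915 to 7071) in NOD, 4 to 8 (571 to 1306) between strains at T0, 4 to 10 (184 to 889) at T1 and 0 to 2 (13 to 69) in the interaction. The 75th percentile scaling shifted all genes in NOD, by their median change, from 0.081 to 0.207; the NOD calls were then 18 rises and 10 falls among members, and 5393 rises and 3145 falls among all genes. Deviations of arrays sharing a replicate number correlated at 0.413 and 0.404 in B10 and at -0.014 and 0.219 in NOD. The labels do not say that a number marks 1 animal, so the main fit did not take the numbers as pairs. With the fixed replicate block the members called were 23 in B10, 24 in NOD, 6 at T0, 8 at T1 and 0 for the interaction, among 5893, 6313, 1212, 923 and 50 of all 19938 genes. With replicate number within strain as a random block they were 25, 26, 7, 8 and 1, among 6558, 7384, 1186, 755 and 69 genes. Array signal near background may limit the 27 dimmer members, which were set apart by their mean over all arrays and not by a background level. Ccl22 is among them, with T1 means of 8.17 in B10 and 7.52 in NOD. Of the 28 brighter ones, 18 (64.3%) were called in B10 and 20 (71.4%) in NOD when tested among brighter genes only. Of all 9969 brighter genes, 59.5% and 60.6% were called.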

Other observations

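Relatives of the family that the symbol rule does not cover were measured too. Ackr1, an atypical receptor known from red cell precursors and endothelium, read 4.81 to 5.01 on the B10 arrays and 5.34 to 6.0 on the NOD arrays. It was higher in NOD by 0.79 ± 0.14 at T0 (adjusted p = 0.00606) and by 0.78 ± 0.17 at T1 (adjusted p = 0.0286) in limma. Ppbp, the platelet chemokine precursor, fell by 0.56 in B10 (adjusted p = 0.00329) and by 0.72 in NOD (adjusted p = 0.000517). Pf4, also a platelet chemokine, changed by -0.04 and -0.05 and passed in no comparison.

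Some chemokine genes exist as near-identical copies that share probes, and 7 probe sets carried several such symbols. The 4 probe sets of the Ccl21 copies held identical values, with group means of 5.33 (B10 T0), 5.52 (B10 T1), 5.47 (NOD T0) and 5.72 (NOD T1). The 3 probe sets of the Ccl27 copies differed between T1 and T0 in B10 by -0.47, -0.47 and -0.37, while the largest NOD value was -0.01. Ccl19 had 5 probe sets and Ccl25 had 2, so their values are uncertain. The second probe set of Ccl25 read 5.38 to 5.56 at T0 and 5.17 and 5.54 at T1 in B10, and 5.32 to 5.67 at T0 and 5.30 and 5.72 at T1 in NOD, overlapping between states in both strains.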
